A study of Homo sapiens with 4 samples.

Results

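Nuclear factor kappa B (NF-kB) target genes were followed in cells given berberine, a plant alkaloid. The set holds 10 genes chosen by gene name, namely the chemokine genes CCL20, CXCL1 and CXCL2, the early response gene IER3, the inhibitor genes NFKBIA and TNFAIP3, the subunit genes NFKB1, NFKB2 and RELB, and the adhesion gene ICAM1. Each of the 10 genes was present with 1 probe, so 10 of the 26423 probes and 10 of the 17778 named genes of the array were described. The set was drawn up after the berberine differences of CCL20 and IER3 were known. The differences between berberine and control samples in these 10 genes are therefore given as a description. Counts past the test over all genes are printed once beside the share of all genes, and nothing is read from them.

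Total RNA was labelled with Cy5 and measured on 1-colour arrays in 2 control samples and 2 berberine samples. The labels name HepG2, an established human hepatocellular carcinoma cell line, in every sample, grown in serum-containing medium without berberine (control) or with 26.95 µM berberine for 24 hours. The series concerned the effect of berberine on the viability of these cells. Another label field speaks of 48 hours of induced differentiation in all samples and of 13.47 µM berberine in the treated ones, and this conflict was not resolved. Nothing in the labels says that replicates were separate cultures, so the replicate spread, and any p-value that rests on it, may be technical only. The control vehicle is not given in the sources used here.

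The array was a mouse array, by the prefix of each of its 26423 probe identifiers. A value under a gene name is thus the signal of a mouse probe in samples labelled as human, and how far the human transcript of that name contributed was not tested. The median deposited intensity was 62 to 90 per sample, and control 2 was the dimmest array, with 269 probes below 0 against 0 to 11 in the other samples. Of 14 measured hepatocyte markers, 2 had a mean above 9.24 on the log2 scale, a line set at the 95th percentile of 528 olfactory receptor genes as a reference for background signal. These were RBP4 (13.34) and FABP1 (9.33), while AFP, a fetal plasma protein gene that HepG2 cells are known to express, read 4.75. The summed signal of the hepatocyte markers was 17473 to 18804 in the controls and 8180 to 9433 with berberine. Most of that sum came from RBP4, whose probe read 17823 and 13847 in the controls and 5611 and 8161 with berberine. Of the 14 markers 7 differed upward and 7 downward, with a median difference of -0.03. The 3 that differed by at least 1 on the log2 scale (21.4%, against 2.38% of all genes) were all lower with berberine. They were FABP1 at -2.32 (10.48 to 8.17), FGG at -1.77 (6.76 to 4.99, both below 9.24) and RBP4 at -1.08. The sum of 12 adipocyte markers, led by SLC2A4 and PLIN1, was 2070 to 2073 and 1912 to 1933. The sums overlapped between the groups for 10 macrophage markers, led by CD14 and CLEC4F (1495 to 1877 against 1515 to 2059), and for 10 endothelial markers, led by CLDN5 and KDR (2027 to 2270 against 1972 to 2053). None of these markers was at 0 in any sample, and their part in the results was not tested. Fewer cells of a type and less RNA per cell cannot be told apart in such bulk samples.

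NF-kB is a family of dimeric transcription factors held in the cytoplasm of resting cells by IkB proteins. Cytokines and microbial products activate the IKK kinase complex, which marks IkB for degradation and frees the dimer to bind kB sites in the promoters of inflammatory, survival and adhesion genes. Several targets encode the pathway's own brakes and subunits, among them NFKBIA, TNFAIP3, NFKB1, NFKB2 and RELB, so the pathway regulates itself. In hepatocytes it is known for the acute phase and for protection from cell death.

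The upstream sequences of 5 genes show the kB sites by which these genes are grouped, and let the CCL20 site be set beside those of other genes of the set. RefSeq's promoter table (GRCh38.p14) held windows for 8 of the 10 genes, running from 250 bases before to 50 bases after the start. IER3 and RELB were not matched in it. The kB consensus, a 10-base motif with 3 G at its 5′ end and 2 C at its 3′ end, was searched on both strands, and overlapping matches were kept. It was found for 7 of the 8 genes (CCL20, CXCL1, CXCL2, NFKBIA, TNFAIP3, NFKB1 and NFKB2), in at least 1 of their windows, against 7.09% of all 27305 genes and 5.91% of all 35116 windows. The ICAM1 window held no match to these letters. The genes were grouped as NF-kB targets to begin with, so this share describes them and is no result of the arrays. The 150 bases before the start are shown 5′ to 3′ on the gene's strand, with bases that match the consensus on either strand in capitals.
CCL20, chr2:227813692-227813841, plus strand: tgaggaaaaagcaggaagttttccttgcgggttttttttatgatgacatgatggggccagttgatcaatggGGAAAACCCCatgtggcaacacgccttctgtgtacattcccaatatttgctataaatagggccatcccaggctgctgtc
CXCL1, chr4:73869243-73869392, plus strand: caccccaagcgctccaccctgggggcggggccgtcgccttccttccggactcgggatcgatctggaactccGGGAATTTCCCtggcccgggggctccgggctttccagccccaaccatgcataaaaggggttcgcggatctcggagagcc
CXCL2, chr4:74099196-74099345, minus strand: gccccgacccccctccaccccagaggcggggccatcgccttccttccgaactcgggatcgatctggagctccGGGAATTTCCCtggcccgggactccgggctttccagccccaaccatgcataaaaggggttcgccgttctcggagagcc
NFKBIA, chr14:35404750-35404899, minus strand: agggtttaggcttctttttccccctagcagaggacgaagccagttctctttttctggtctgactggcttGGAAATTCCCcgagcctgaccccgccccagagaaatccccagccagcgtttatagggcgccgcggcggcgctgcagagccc
TNFAIP3, chr6:137867109-137867258, plus strand: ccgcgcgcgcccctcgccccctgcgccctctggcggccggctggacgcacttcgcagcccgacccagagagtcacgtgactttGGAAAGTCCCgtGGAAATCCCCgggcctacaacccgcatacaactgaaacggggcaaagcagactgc

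The match in CCL20 lay at -79 to -70 from the start and read GGGGTTTTCC on the opposite strand. CXCL1 and CXCL2, paralogs on chromosome 4, both held GGGAATTTCC, at -79 to -70 and at -78 to -69. The 150 bases shown for each shared a longest identical run of 42 bases. NFKBIA held GGGAATTTCC on the opposite strand, at -81 to -72. TNFAIP3 held a pair of matches on the opposite strand, GGGACTTTCC at -67 to -58 and GGGGATTTCC at -55 to -46. A match in human sequence is a description and not a measure of binding in these cells.

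CCL20 and IER3 had by far the largest berberine differences of the 10 genes, both upward, and the other 8 differed by less than 0.5 on the log2 scale. CCL20 encodes a chemokine that attracts lymphocytes and dendritic cells through the receptor CCR6. The CCL20 probe read 145 and 110 in the controls and 391 and 453 with berberine, in deposited intensity. Both berberine values lay above both controls. After quantile normalization its log2 level was 6.99 ± 0.0040 in the controls and 8.83 ± 0.019 with berberine (SD, n = 2 in each group), a difference of 1.84 with an SE of 0.11. Both means lay below 9.24, the background line, so no fold is given.

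IER3 encodes a stress-inducible protein known for roles in cell survival. Its probe read 125 and 70 in the controls and 248 and 338 with berberine, again with both berberine values above both controls. On the log2 scale the level was 6.60 ± 0.25 in the controls and 8.26 ± 0.16 with berberine (SD, n = 2 in each group), a difference of 1.66 with an SE of 0.19, with both means below that line too. The gap between the nearest samples of the 2 groups was 1.82 for CCL20 and 1.37 for IER3 on the log2 scale.

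**Figure D1:**
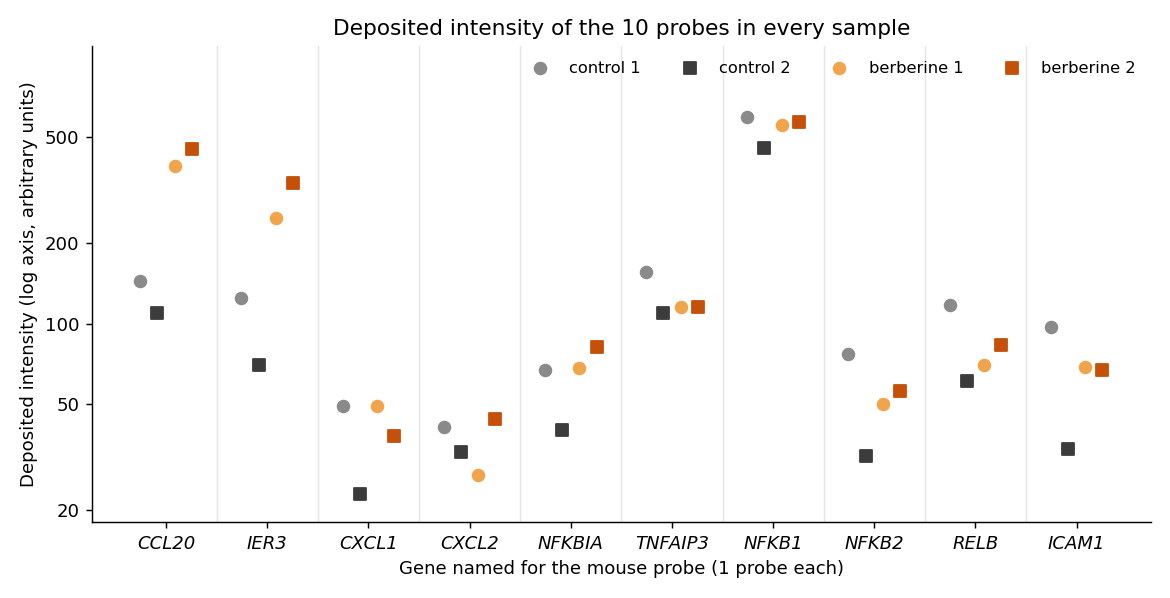
Deposited intensity (vertical log axis, arbitrary units) of the 10 probes (horizontal axis) in control 1 and 2 (grey and black) and berberine 1 and 2 (light and dark orange), each point being 1 sample. CCL20 rises from 110 to 145 in the controls to 391 to 453 with berberine and IER3 from 70 to 125 to 248 to 338, while in the other genes, except NFKBIA, the control and berberine samples overlap. Heights of different probes are not comparable as transcript amounts.

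The 2 other chemokine genes did not share the CCL20 pattern. CXCL1, a neutrophil chemokine, read 49 and 23 in the controls and 49 and 38 with berberine. Its groups overlapped, and the log2 difference was 0.06 with an SE of 0.20, or -0.20 without berberine 1 and 0.29 without berberine 2. CXCL2, a related neutrophil chemokine, read 41 and 33 in the controls and 27 and 44 with berberine. Its lowest and highest values both came from berberine samples, and the difference of -0.45 had an SE of 0.38. It was -0.0061 without berberine 1, -0.13 without control 2, -0.81 without control 1, -0.88 without berberine 2 and -0.09 with values as deposited. CXCL1 and CXCL2 carry the same kB letters in the human windows shown above. Over all samples their probes read at the 29.9 and 22.9 percentile of the olfactory receptor genes. Any link between the letters and the differences was not tested.

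Among the brakes on the pathway, NFKBIA encodes the IkB alpha protein that holds NF-kB in the cytoplasm. Its probe read 67 and 40 in the controls and 68 and 82 with berberine, so the groups were apart by only 1 unit of deposited intensity. The log2 level went from 5.80 ± 0.03 to 6.19 ± 0.09 (SD, n = 2 in each group), a difference of 0.38 with an SE of 0.12. TNFAIP3 encodes A20, a ubiquitin-editing enzyme that dampens signalling from the TNF receptor. Its probe read 156 and 110 in the controls and 115 in both berberine samples, which lay between the controls. The log2 difference was -0.16 with an SE of 0.13, or -0.27 without berberine 1 and -0.08 without berberine 2.

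Subunit genes were close to level. NFKB1, which encodes p105 and its product p50, read 593 and 454 in the controls and 554 and 568 with berberine. Both berberine values lay between the controls as deposited, and the log2 difference was 0.31 with an SE of 0.15 after normalization but -0.0010 with median centring. NFKB2, which encodes p100 and its product p52 of the non-canonical pathway, read 77 and 32 in the controls and 50 and 56 with berberine. Its berberine values lay between the controls too, with a log2 difference of -0.13 and an SE of 0.18. The difference turned to 0.09 with values as deposited and to 0.08 without control 1.

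RELB encodes the usual partner of p52. It read 117 and 61 in the controls and 70 and 83 with berberine, once more with the berberine values between the controls. Its log2 difference was -0.23 with an SE of 0.17, or -0.04 without control 1 and -0.40 without control 2. ICAM1, a leukocyte adhesion molecule, read 97 and 34 in the controls and 69 and 67 with berberine. Both berberine values of ICAM1 lay between the controls, which read 6.35 and 5.73 on the log2 scale, and the log2 difference was 0.04 with an SE of 0.25. It was -0.25 without control 2, -0.03 without berberine 1 and 0.34 without control 1.

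**Figure D2:**
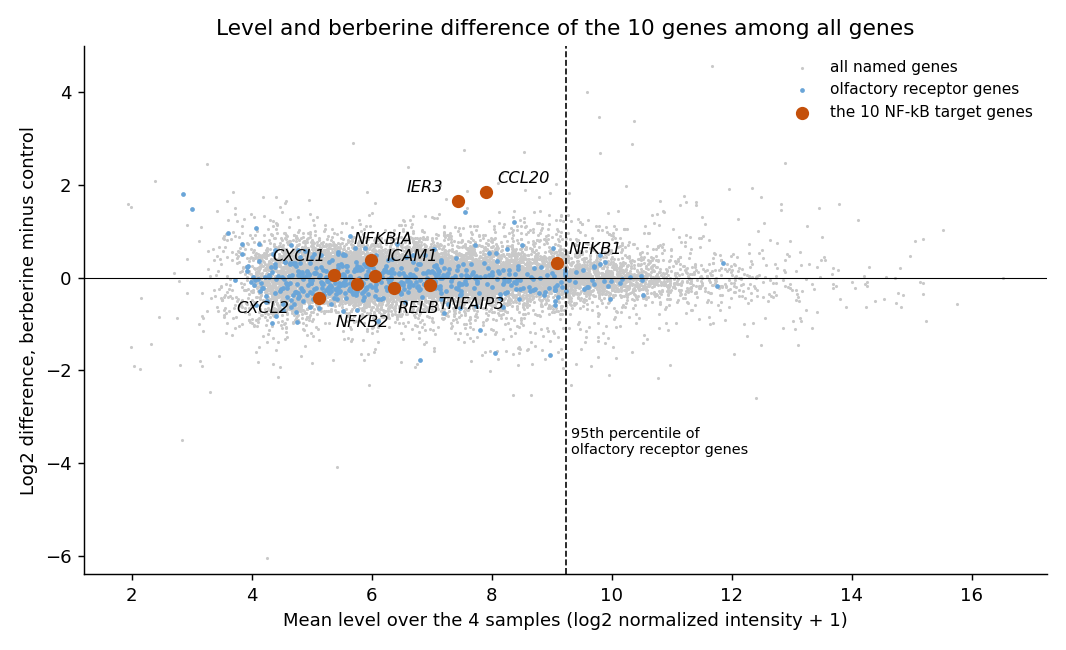
Log2 difference between berberine and control means (vertical axis) against the mean log2 level over the 4 samples (horizontal axis) for all 17778 named genes (grey), the 528 olfactory receptor genes (blue) and the 10 NF-kB target genes (orange). CCL20 at 1.84 and IER3 at 1.66 stand above the other 8, and all 10 lie left of the dashed line at 9.24.

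As counts, 6 of the 10 differences were positive and 4 negative, with a median of 0.05 against -0.01 over all genes. The groups did not overlap for 6 of the 10 genes after normalization (CCL20, IER3, NFKBIA and NFKB1 higher, TNFAIP3 and RELB lower), where the share over all genes was 45.0%, with 21.7% higher and 23.3% lower. With values as deposited it was 3 of 10 (CCL20, IER3 and NFKBIA, all higher) against 24.1%, and with median centring 5 of 10 against 47.3%. Differences of at least 1 on the log2 scale were found for CCL20 and IER3, where 2.38% of all genes reached that size in either direction. In limma's test without an intensity trend, 0 of the 10 passed an adjusted p of 0.05 (0.0506% of all genes did, 0.0450% upward). An unadjusted limma p under 0.05 was found for 3 of the 10, where 2318 of all 17778 genes had one. With an intensity trend in the variance model, CCL20 and IER3 passed, both higher, where 1.46% of all genes did, 0.962% upward. Because these genes were chosen with the contrast known, these counts support nothing.

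The level over all samples was not used to choose the genes. The mean over the 4 samples lay below 9.24, the olfactory receptor 95th percentile, for all 10 genes, where 9.15% of all genes lay above it. The CCL20 probe went from the 67.2 percentile of the olfactory receptor genes in the controls to the 91.3 percentile with berberine, and the IER3 probe from 59.1 to 85.2. NFKB1 came nearest to the line, at 9.09, and its berberine mean of 9.25 lay just past it. CXCL1, CXCL2, NFKBIA, NFKB2 and ICAM1 read between the 22.9 and 50.2 percentile over all samples. By this reference the mean signal of none of the 10 probes, CCL20 and IER3 included, was distinguishable from background. Among the 4564 genes within 0.5 of the members' median level, the median size of a difference was 0.17 and the 95th percentile 0.63. That range ran from 5.72 to 6.72 and held NFKBIA, NFKB2, RELB and ICAM1. The other members lay outside it, CCL20 at 7.91 and IER3 at 7.43, so it gives no scale for their differences.

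Control 2 gave the lowest deposited value for 9 of the 10 probes, the exception being CXCL2, and still the lowest of 6 after normalization. Control 2 was also the dimmest array over all probes. Whether its low values are particular to these 10 probes was not tested. The share of all genes that were lowest in control 2 was not counted. CCL20 was at 1.78 on the log2 scale without control 2 and at 1.84 without control 1, and IER3 at 1.44 and 1.84.

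**Figure D3:**
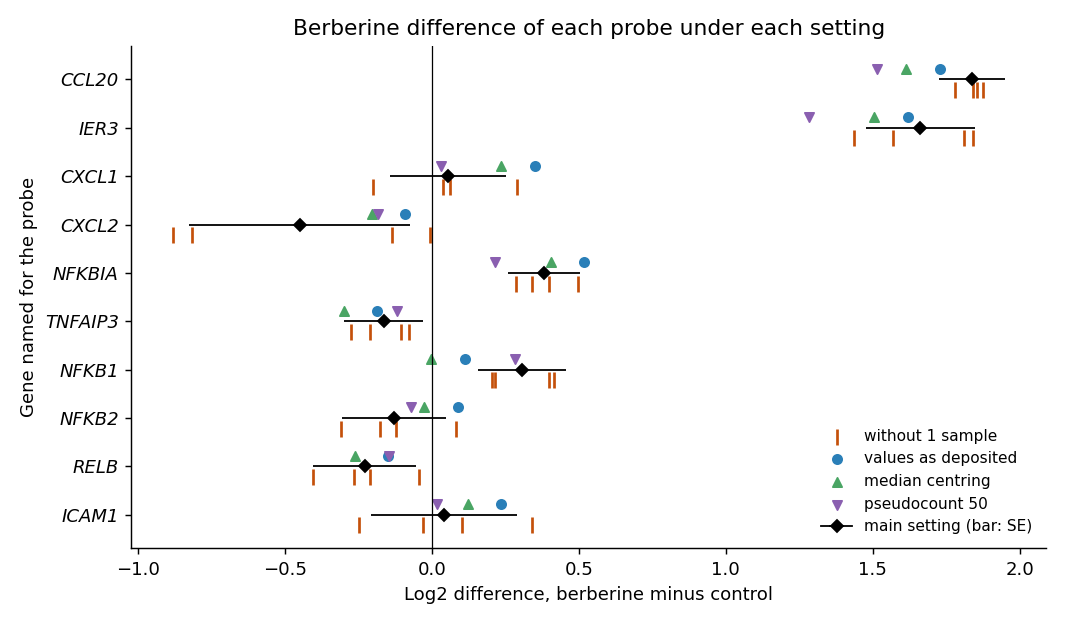
Log2 difference between berberine and control means (horizontal axis) for each of the 10 genes (vertical axis) in the main setting (black diamond, bar for the SE), with other scalings (coloured symbols) and without each sample in turn (orange ticks). CCL20 stays between 1.52 and 1.88 and IER3 between 1.28 and 1.84, while CXCL1, NFKB1, NFKB2 and ICAM1 fall on both sides of 0.

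The patterns most like those of CCL20 and IER3 were sought among 8885 other genes above the median level, by the Euclidean distance between log2 values centred on each gene's own mean over the 4 samples. Nearest to CCL20 were IFRD1, a transcriptional co-regulator (distance 0.04, difference 1.82), IER5, an early response gene (0.06, difference 1.88), and FBXO33, an F-box protein gene (0.09, difference 1.75). Nearest to IER3 were MARS, the methionyl-tRNA synthetase gene (0.21, difference 1.56), the clone 1810013L24RIK (0.21, difference 1.74) and CEBPB, a transcription factor gene (0.23, difference 1.58). The distance between CCL20 and IER3 themselves was 0.35, and 19 other genes were nearer to CCL20 than IER3 was. With 4 samples such likeness is a description of these arrays.

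**Figure D4:**
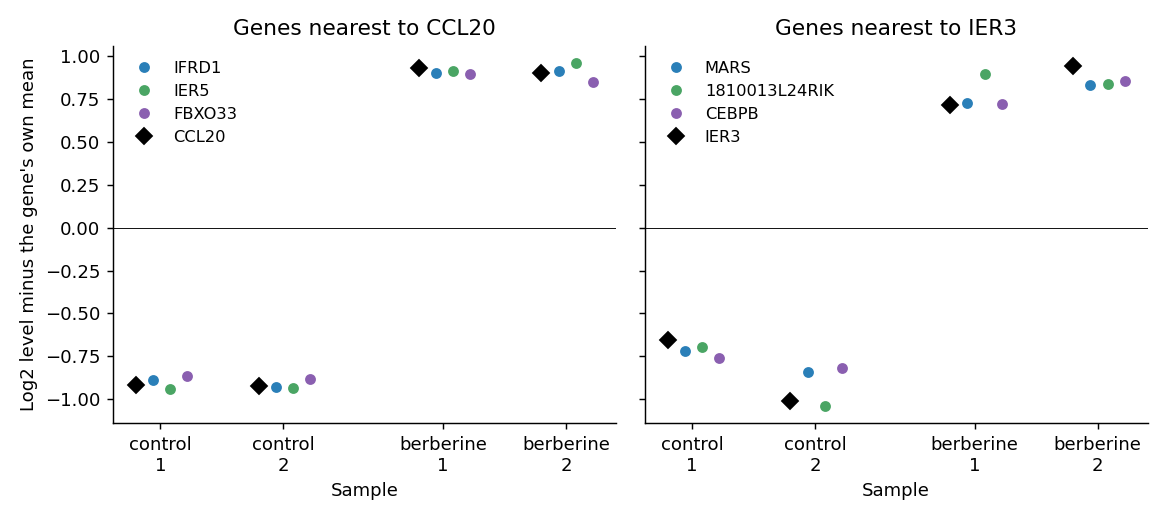
Log2 level minus each gene's own mean (vertical axis) in the 4 samples (horizontal axis) for CCL20 (left, black) and IER3 (right, black) with their 3 nearest genes (colours). In CCL20 the controls sit at -0.92 and -0.92 and the berberine samples at 0.93 and 0.91, and its nearest genes lie almost on top of it.

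Other genes of the NF-kB pathway were taken from lists by role that did not include the 10. Over 110 measured genes, 0 passed limma's test without a trend after adjustment over all 17778 genes. An unadjusted limma p under 0.05 was found for 16 of the 110, where 2318 of all 17778 genes had one. With an intensity trend 6 of the 110 passed after adjustment, 5 higher and 1 lower. That is 5.45%, against 1.46% over all genes. The lists were drawn up with earlier results of these data known. No test of the list was made, and nothing is read from this share. The median difference over the 110 genes was 0.05, against -0.01 over all genes. Without any 1 of the 4 samples, 0 of the 110 passed the trend test, with 13 to 23 at an unadjusted limma p under 0.05.

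The largest rise was that of LIF, a cytokine of the interleukin-6 family, whose probe read 651 and 386 in the controls and 2892 and 3570 with berberine. Both berberine values were far above both controls, a log2 difference of 2.88 with an SE of 0.21 from a control mean of 8.89, below 9.24 (limma adjusted p = 0.00871 with the trend, 0.0771 without). MAP3K14, the kinase NIK that starts the non-canonical pathway through NFKB2 and RELB, read 4260 and 4059 in the controls and 6976 and 8188 with berberine. Its log2 difference was 1.01 with an SE of 0.12 (limma adjusted p = 0.0169 with the trend, 0.123 without). NFKB2 and RELB, its downstream partners, were at -0.13 and -0.23 in RNA signal, both with means below 9.24. The making of p52 protein from p100 was not measured, and activity of the non-canonical pathway was not tested.

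NFKBID, a nuclear IkB protein gene, was at 0.70 (limma adjusted p = 0.032 with the trend, 0.171 without), and ITCH, a ubiquitin ligase gene and partner of A20, at 1.11 (0.0428 and 0.131). IER5, already named as close to CCL20, read 115 and 82 in the controls and 308 and 377 with berberine, at 1.88 (limma adjusted p = 0.0059 with the trend, 0.0688 without), while a second, dimmer IER5 probe was at 0.01. PLAU, the urokinase gene, was the 1 that fell in the trend test, from 467 and 630 to 133 and 162, at -1.75 (limma adjusted p = 0.0487 with the trend, 0.149 without). LIF, MAP3K14 and NFKBID had means above 9.24, and ITCH, IER5 and PLAU below it.

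By role, 2 of 14 genes of the IKK complex, IkB proteins and inhibitors passed the trend test, 1 of 30 receptors and adaptors, 1 of 15 cytokines and 2 of 33 other targets. Of the other 2 subunit genes, REL and RELA, 0 passed, with differences of 0.09 to 0.10. None of 13 other chemokine genes passed, with differences from -1.16 to 0.50, and none of 3 chemokine receptor genes, among them the CCL20 receptor CCR6. Among pathway genes above 9.24 the largest falls were small and did not pass, at -0.16 for IRF1, a transcription factor gene, and -0.14 for MAP3K3, a kinase gene.

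**Figure D5:**
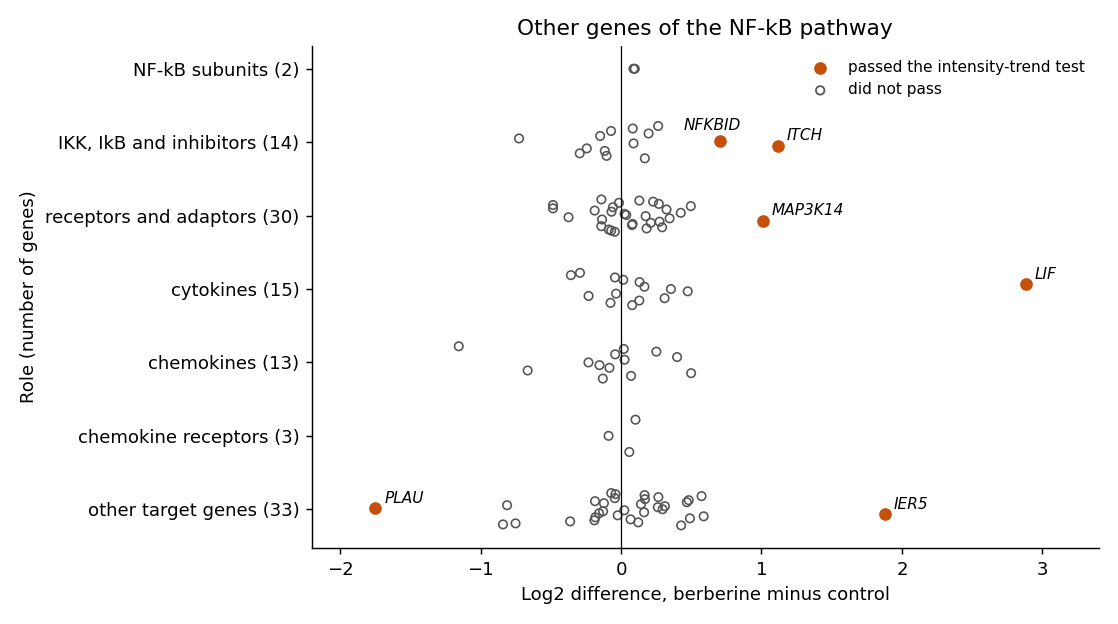
Log2 difference between berberine and control means (horizontal axis) for 110 other genes of the NF-kB pathway grouped by role (vertical axis, number of genes in brackets), each circle being 1 gene and filled where it passed the trend test. LIF lies farthest right at 2.88 and PLAU farthest left at -1.75, and most circles lie near 0.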

How the data were processed

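The series table gives a probe's intensity in each sample as deposited, in whole numbers on a linear scale, some below 0. The scanner and the authors' background correction and normalization are not stated in the labels or the file. Of 26423 probes, 20377 had 1 gene symbol in the platform annotation, 0 several and 6046 none. One listed gene was matched by an older symbol.

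Intensities were quantile normalized over all probes and floored at 0, then log2(value + 1) was taken, the scale of every difference here. A gene with several probes was represented by its brightest. The model was limma 3.58.1 in R 4.3.3 (2 residual degrees of freedom, 2-sided, Benjamini-Hochberg over 17778 genes, threshold 0.05). SEs of the 10 genes came from this model with every probe as a row. An exact permutation test of 1 value cannot go below 0.333 here. The scripts were tested on simulated data. The number of arrays limits the precision.

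The members, gene lists and tests were chosen with earlier results of these data known. Besides the members, the text names pathway genes past either test, the 2 largest rises and falls of bright pathway genes, the 3 nearest patterns of CCL20 and IER3 and the 2 brightest markers of each list. AFP, FGG, CCR6, REL and RELA were added after their values were seen. Settings tried as alternatives were values as deposited, median centring, a pseudocount of 50, leaving out the dimmest 30%, eBayes with an intensity trend or robust, probes averaged per gene or kept as rows, a replicate block and each sample left out. Python 3.11.15 read the RefSeq sequences, and matplotlib 3.10.9 drew the figures.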

Additional observations from a re-analysis of the deposited data

How the results depend on the processing

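The direction of CCL20 and IER3 held in all 8 other settings in which a difference was computed. Averaging a gene's probes was 1 of these and could not differ from the main setting, as each of the 10 genes has 1 probe. CCL20 was at 1.73 with values as deposited, 1.62 with median centring and 1.52 with a pseudocount of 50, and IER3 at 1.28 with that pseudocount. Without 1 sample, CCL20 ranged from 1.78 to 1.88 and IER3 from 1.44 to 1.84. The count of genes past limma's main test, 9, was 2 with values as deposited, 251 with a pseudocount of 50, 138 without the dimmest 30% and 260 with an intensity trend. It was 0 with median centring, with each probe as its own row and with the replicate block (2247, 3101 and 1878 at an unadjusted p under 0.05). It was also 0 without any 1 sample, from 0 to 0 with or without a trend (1380 to 3100 unadjusted), where the lone sample of a group is assumed to vary like the other. The trend without 1 sample was chosen after seeing the data. Of the 110 other pathway genes, 0 passed the main test. With a pseudocount of 50 it was 5 of 110 (251 of all 17778 genes), and with the trend 6 of 110 (260 of 17778). Without the dimmest 30%, 2 of the 76 pathway genes left passed, where 138 of 12444 genes did. The causes were not tested. CXCL1 was at -0.20 without berberine 1. In the labels the same-numbered samples shared only a number, and the correlation between their deviations over all genes was 0.09. Single genes could still move together by number. CLEC4F read 7.75 and 9.43 on the log2 scale in control 1 and 2 and 7.40 and 9.41 in berberine 1 and 2. Whether these samples shared a batch was not tested. The replicate block left 0 pathway genes past limma's threshold (15 unadjusted). Low signal over background limits all 10 probes.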
